A study of Caenorhabditis elegans with 16 samples.

Results

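Over-covered windows are stretches of the assembly where the untreated chromatin, the input, already gave far more reads than the typical window. In early Caenorhabditis elegans embryos, 290 windows of 500 bp, 145 kb in all, held at least 1.5 times the median count in both H3K9me2 inputs, the one of set-25 and the one of met-2 embryos. They were chosen by their counts in these 2 inputs, among the 191140 of 198087 windows in which no input fell below 20 counts, and made up 0.152% of the 191140. Of the 290, 11 lay in the last 20 kb of chromosome I and are called the ribosomal end, so that 279 remained without it. The degree of over-coverage of a window is the smaller of its ratios to the median in these 2 inputs. Since the windows were selected on these inputs, their height in them is a description and not a finding.

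When several near-identical copies of a sequence in the animal are represented by fewer copies in an assembly, the reads of all copies pile up on the copies that are there. The tandem array of the large ribosomal RNA genes is the textbook case, and in this worm it lies at the right end of chromosome I. H3K9 methylation marks silent chromatin, which in worms is concentrated on the repeat-rich arms of the autosomes. MET-2, related to SETDB1 of mammals, adds the first methyl groups to H3K9, up to dimethylation, and SET-25 is needed for H3K9 trimethylation in embryos.

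The groups were set-25(n5021) III and met-2(n4256) III embryos, collected at early stages, before the bean stage, with worms grown at 20 °C, and fixed with 2% formalin. Chromatin immunoprecipitation sequencing (ChIP-seq) was done for H3K9me2 and for H3K9me3, each ChIP with an input of its own. The labels list 16 samples in 8 groups with 2 biological replicates each, and no wild type. The table held 1 column of counts per group, so that the values below carry no replicate error and none was tested. Intervals given for runs cover counting error alone.

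The columns held 19732750 to 58645635 counts in the ChIPs and 34007808 to 114221896 in the inputs. The median window had 41 counts in the shallowest column, the H3K9me2 ChIP of set-25, and 488 in the H3K9me3 input of met-2, the deepest. At the mutated genes the H3K9me3 libraries labelled set-25 went against that label: the input held 2 counts, against 608 expected from its flanks, in a stretch also missing from the met-2 libraries, and the ChIP held 1431 counts, against 1030 expected, in a stretch missing from the H3K9me2 libraries of set-25. In this second stretch their input held only 2 counts, against 806 expected, and in the first their ChIP held 15, against 139.5, so ChIP and input did not match each other there. They are called the library labelled set-25 here, every H3K9me3 difference between strain labels rests on them, and their enrichment divides a ChIP by an input that differs from it at these genes. This ChIP had no count in 7.93% of the over-covered windows and in 8.64% of the 191140.

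In degree, windows lay close to the threshold on both sides. Just outside it, 477 windows had a degree of 1.4 to 1.5, and just inside it 95 had 1.5 to 1.6. Another 381 windows passed only in the set-25 input and 1386 only in the met-2 input, but 0 windows with a ratio of 3 or more in one of them stayed below 1.5 in the other. Of the 290, 190 had a degree below 2, and 14 one of at least 10, of which 8 were ribosomal.

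The H3K9me3 inputs entered the choice only through the minimum of 20 counts, and 312 windows qualified when the one labelled set-25 was left out of that minimum, an alternative chosen after seeing the data. Of the 290 windows, 145 (50%) were also at 1.5 times the median or more in both H3K9me3 inputs, against a background of 19.6% of the 191140 windows. Without the ribosomal end it was 134 of 279 (48.0%). Another 36 windows (12.4%) lay below the median in both H3K9me3 inputs, against 45.4% of the 191140. Over these 191140 windows the inputs of the 2 marks ranked windows differently, with a Spearman correlation between the marks of 0.10 in set-25 and -0.27 in met-2, whereas the inputs of the 2 strain labels correlated at 0.72 for H3K9me2 and 0.96 for H3K9me3. Over the 290, the correlation between marks was 0.47 in set-25 and 0.37 in met-2. These points share libraries and neighbouring windows, and base composition was not examined. About as many windows as not were thus over-covered in all 4 inputs, and no sequence or annotation of the build was at hand to call any window a repeat. The name "over-covered" is therefore kept.

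**Figure D1:**
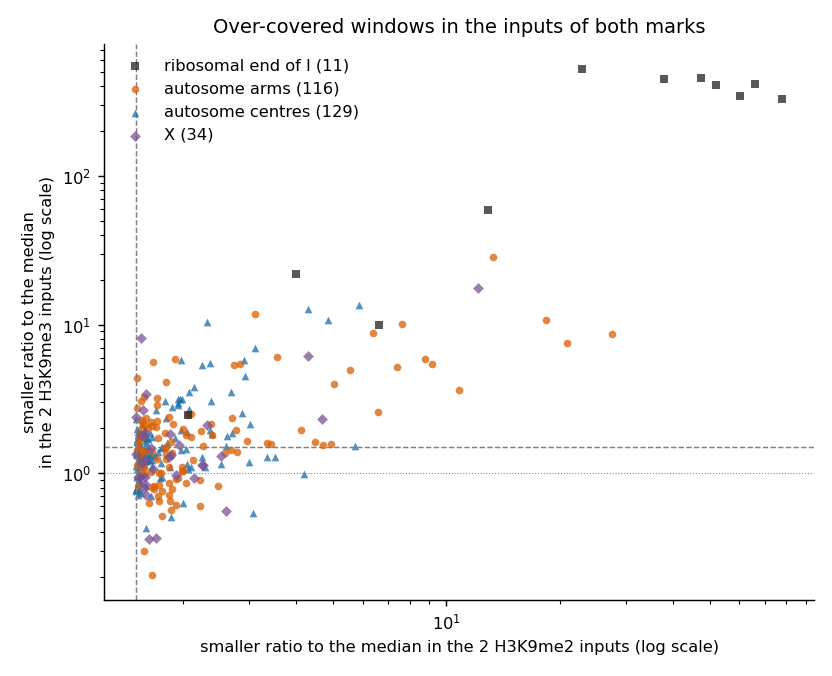
Degree of over-coverage of the 290 windows in the H3K9me2 inputs (horizontal axis, the smaller of 2 ratios to the median, log scale) and the same measure in the H3K9me3 inputs (vertical axis, log scale). The dashed lines mark 1.5 times the median and the dotted line the median; the ribosomal windows reach the highest values on both axes, and 145 windows lie above the horizontal dashed line.

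The ribosomal end was the most over-covered stretch. It consisted of a run of 10 windows from 15063501 to 15068500 on I and a single window from 15061001 to 15061500, separated by windows with few or no counts. In the order of the gene table at hand, whose build (WBcel235) differs from that of the windows, the last genes of chromosome I include rrn-3.56, rrn-1.1, rrn-2.1, rrn-3.1 and rrn-1.2, which are ribosomal RNA genes and, in the case of rrn-3.56, a ribosomal RNA pseudogene. No count in any of the 8 columns fell from 15062001 to 15063500 or from 15069001 to 15071000.

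In the ChIPs the run of 10 windows held 1407194 counts for H3K9me2 in set-25, 77826 for H3K9me2 in met-2, 368554 for H3K9me3 of the library labelled set-25 and 329696 for H3K9me3 in met-2. The inputs, in the same order, held 178219, 71736, 685463 and 1727774 counts. The H3K9me2 ChIP of set-25 stood out: the 11 windows took 7.13% of all its counts, against 0.397% of the counts of its input, and 0.294% of the counts of the H3K9me2 ChIP of met-2, against 0.212% of its input. For H3K9me3 the share was lower in the ChIP than in the input for met-2 (0.564% against 1.51%) and higher in the library labelled set-25 (1.87% against 1.39%).

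Over its own input, the run had a log2 enrichment of 4.17 (set-25) and 0.47 (met-2) for H3K9me2, a difference of 3.69 or 12.9-fold. All 11 ribosomal windows were above 3 in set-25, from 3.35 to 4.40, and below 1 in met-2, from -0.44 to 0.88. Each was at least 1 log2 unit higher in set-25, as were 9.81% of the 191140 windows. These windows are neighbours read from 1 column per strain and are not replicates. For H3K9me3 the run had a log2 enrichment of 0.43 for the library labelled set-25 and -1.43 for met-2. The level of these ratios depended on which input was the denominator. On average the run stood at 74.0 times the median in the H3K9me2 input of set-25 and 38.8 times in that of met-2, but at 302 times in the H3K9me3 input labelled set-25 and 354 times in that of met-2. Over the input of the other mark, the H3K9me2 enrichment of the run became 2.36 for set-25 and -2.37 for met-2, and the H3K9me3 enrichment 2.24 in the library labelled set-25 and 1.41 in met-2. The higher H3K9me2 in set-25 thus kept its direction with either input, while the signs of H3K9me2 and of H3K9me3 in met-2 depended on which input was used.

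H3K9me2 of set-25 was also high next to the over-covered windows. The window from 15068501 to 15069000, at 1.498 and 0.80 times the median in the set-25 and met-2 H3K9me2 inputs, had a log2 enrichment of 3.63. In the H3K9me3 inputs, however, it stood at 3.63 and 4.19 times the median. The window from 15060501 to 15061000, at 0.56 and 0.22 times the median in the H3K9me2 inputs and 0.91 and 1.39 times in the H3K9me3 inputs, had 3.32. The last, shorter window of the chromosome had 4.32, with only 43 and 22 counts in the H3K9me2 inputs. High values at this end were thus also seen in some windows that the H3K9me2 inputs had not chosen. These windows were picked after their values were seen, and the cause was not tested.

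**Figure D2:**
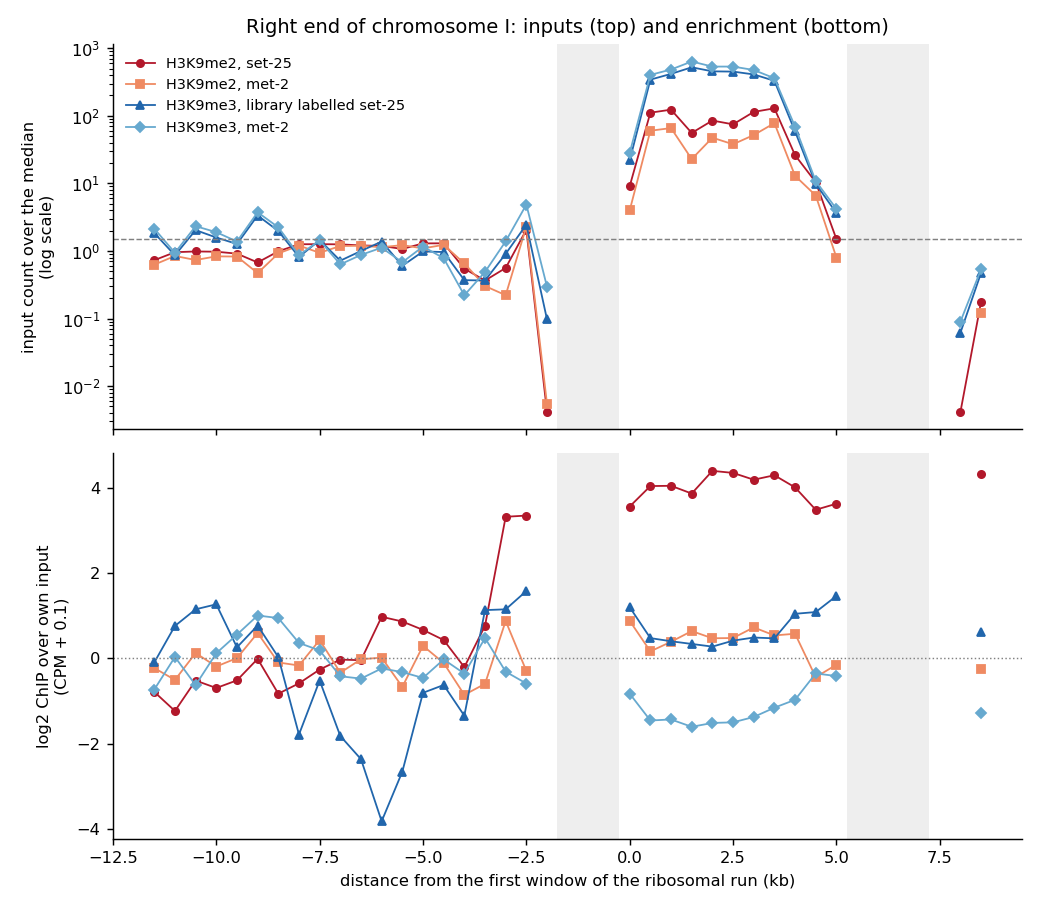
Right end of chromosome I, by distance in kb from the first window of the ribosomal run: input count over the median on a log scale (top; dashed line, 1.5 times the median) and log2 ChIP over own input with 0.1 CPM added (bottom). Grey bands are windows with 0 counts in all 8 columns, and a count of 0 in 1 input is not drawn; H3K9me2 of set-25 lies at 3.49 to 4.40 throughout the run, above the other 3 libraries.

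Over all over-covered windows, H3K9me2 in set-25 was higher than elsewhere, H3K9me2 in met-2 followed its input, H3K9me3 of the library labelled set-25 was lower than elsewhere, and H3K9me3 of met-2 was close to the other windows. For H3K9me2 in set-25 the median log2 enrichment was -0.93 in the 290 windows and -1.33 in the 190850 others, a difference of 0.39 that was 0.31 without the ribosomal end. In met-2 the medians were -0.09 and -0.0050. For H3K9me3 they were -1.01 and -0.29 in the library labelled set-25, a difference of -0.71, and -0.46 and -0.35 in met-2. The difference of -0.71 depended on the choice of windows: it was -0.029 for those over-covered in all 4 inputs and 0.74 when the H3K9me3 inputs alone chose them.

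A log2 enrichment above 1, more than 2-fold over the input, was the threshold for calling a window enriched. H3K9me2 of set-25 was enriched in 72 of the 290 windows (24.8%), 61 of 279 without the ribosomal end, against a background of 10.3%. H3K9me2 of met-2 was enriched in 9 windows (3.10%, background 1.34%). H3K9me3 was enriched in 11 windows (3.79%, background 6.81%) in the library labelled set-25, 7 without the ribosomal end, and in 15 windows (5.17%, background 4.1%) in met-2. For H3K9me2 the denominators of these ratios are the inputs that chose the windows, so the ratio to the H3K9me3 input is given as well. With it, 95 windows were above 1 in set-25 (background 9.93%), 85 without the ribosomal end, and 60 in met-2 (background 9.3%), none of them ribosomal. H3K9me3 over the H3K9me2 input, which takes the selected values as its denominator, was above 1 in 28 windows (18 without the ribosomal end, background 17.1%) of the library labelled set-25 and in 20 (13 without it, background 10.2%) of met-2. The H3K9me2 share was thus above its background with either input in both strains, and in met-2 it was 3.10% with its own input and 20.7% with the other.

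Before any division by an input, the median over-covered window held 2.77 times the median ChIP count for H3K9me2 in set-25 and 1.91 times in met-2, where the H3K9me2 inputs stood at 1.85 and 1.88 times their medians. For H3K9me3 it held 0.931 times the median ChIP count in the library labelled set-25 and 1.44 times in met-2, where the inputs stood at 1.63 and 1.57 times. The ChIP count of H3K9me2 in met-2 was thus raised about as much as its input, and that of set-25 more. The ChIP count of H3K9me3 in met-2 was raised less than its input, and that of the library labelled set-25 was not raised.

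Over its own input, H3K9me2 in set-25 tended to be higher at higher degrees of over-coverage, and no such order was seen over their own inputs in the other 3 libraries. Without the ribosomal end, the medians of H3K9me2 in set-25 were -1.24 in the 190 windows of degree 1.5 to 2, -0.54 in the 55 of degree 2 to 3, -0.72 in the 18 of degree 3 to 5, 0.49 in the 10 of degree 5 to 10 and 1.29 in the 6 of degree 10 or more. The numbers enriched were 34 (17.9%), 16 (29.1%), 4 (22.2%), 4 (40%) and 3 (50%), beside the background of 10.3%. With the ribosomal end, the highest group grew to 14 windows and its median to 4.03. The third group did not exceed the second, and the highest groups rest on few windows. The groups also differed in region, with 93 of the 190 windows of degree 1.5 to 2 in centres. On arms the medians, in the same order, were -0.34, 0.54, -0.72, 0.49 and 0.73, with no steady rise. In centres they were -1.75, -1.37, -1.39 and, in 2 windows, 0.18, and no window there reached 10. On X the 25 windows of degree 1.5 to 2 had 0.08 and the 6 of degree 2 to 3 had 0.02. The part of region in the rise was not tested.

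In met-2 the medians of H3K9me2 over the same 5 groups were -0.13, 0.02, -0.29, 0.13 and 0.08, close to 0 throughout. For H3K9me3 they were -0.93, -1.89, -0.93, -0.47 and -2.40 in the library labelled set-25, with no steady order, and -0.44, -0.42, -0.70, -0.25 and -0.49 in met-2. Across windows, the Spearman correlation of H3K9me2 enrichment in set-25 with the degree was 0.32 over 290 windows and 0.25 over the 279 without the ribosomal end. Over all 191140 windows it had the opposite sign, at -0.34. The degree is taken from the H3K9me2 inputs, which also divide the H3K9me2 ChIPs here. Degree and enrichment thus share values, and a high input lowers the ratio by itself. Over the H3K9me3 input the correlation was 0.39 and 0.34 in set-25, and 0.08 and 0.20 for H3K9me2 in met-2. All 191140 windows gave -0.08 and 0.48 with that input for H3K9me2 in set-25 and met-2. Over the 279 and the own input, the correlation was 0.02 for H3K9me2 of met-2, 0.00 for H3K9me3 of the library labelled set-25 and 0.02 for H3K9me3 of met-2. In the same order, all 191140 windows gave -0.25, -0.43 and 0.02. Windows of a run share their libraries and their sequence context, so these are descriptions only.

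**Figure D3:**
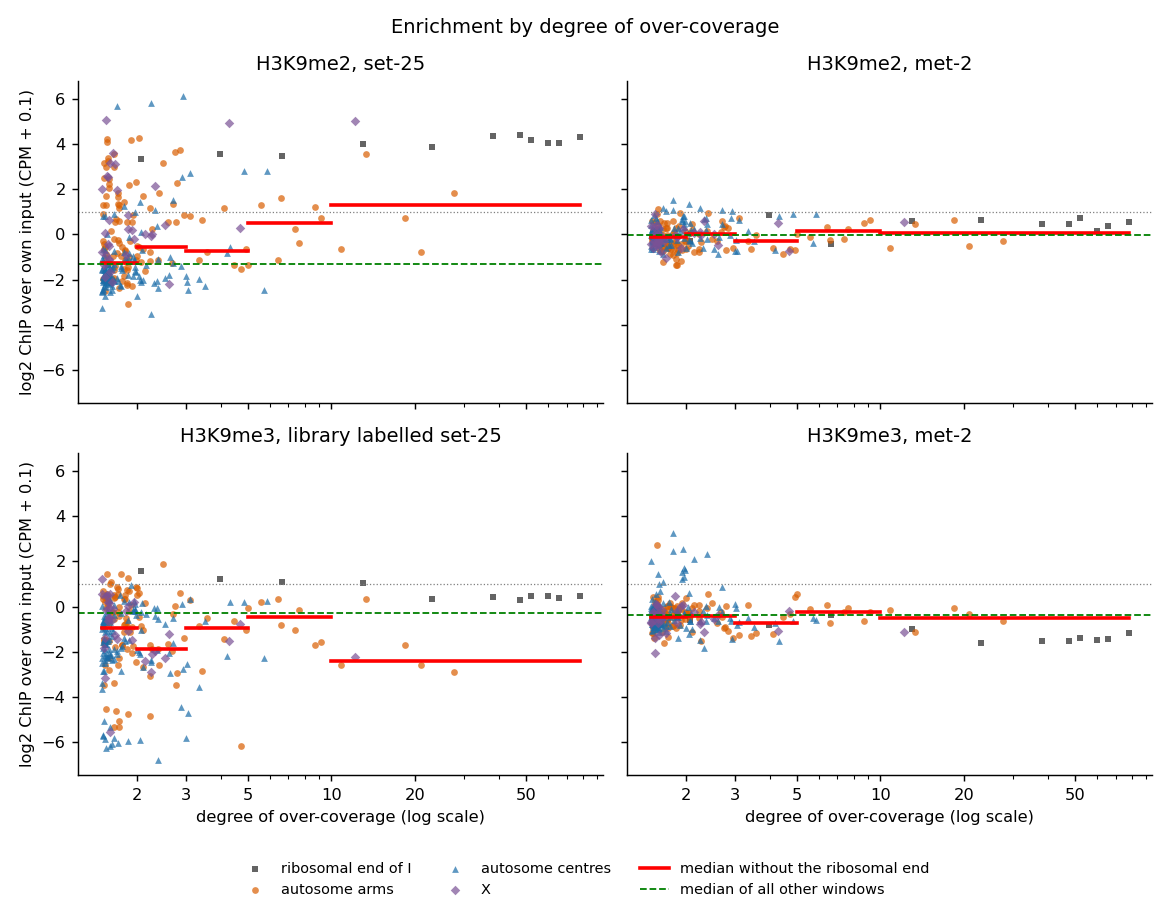
Log2 ChIP over own input (0.1 CPM added) against the degree of over-coverage (log scale) for the 290 windows in each library. Red lines are medians of the degree groups without the ribosomal end, green dashed lines medians of the 190850 other windows and grey dotted lines the threshold of 1; H3K9me2 of set-25 spreads from -3.52 to 6.13 and its red lines climb to 1.29, while those of met-2 stay near 0.

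Over-covered windows were as frequent on the arms, the outer 25% of each autosome at either end, as in the centres, with 127 windows (0.161%) on arms, 129 (0.161%) in centres and 34 (0.105%) on the measured part of X, which was not divided. Chromosome V held most, with 89 windows (0.223% of its windows), 53 of them on its arms. H3K9me2 of set-25 in the over-covered windows differed most from the rest of its own region on X. There, however, 10 of the 34 windows lay in 1 group near the left end, from 6501 to 21500, with a median of 1.33. They were set against X as a whole. On the arms most of the difference in medians over its own input came with the ribosomal end. Over the H3K9me3 input the arm difference was 1.18 with that end and 0.67 without it.

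On arms the median of H3K9me2 in set-25 was 0.53 in over-covered windows and -0.47 in the others, a difference of 0.998. Without the 11 ribosomal windows it was -0.28, so that the difference was 0.19. Enriched were 50 of 127 windows, or 39 of 116 without the ribosomal end, against a background of 22.1% on arms. In centres the medians were -1.73 and -1.70, and 11 of 129 windows were enriched (background 1.51%), so that a small number of windows stood out from a group that as a whole did not differ. On X the medians were 0.13 and -1.397, a difference of 1.52, and 11 of 34 windows were enriched (background 3.17%). Of these 11, 5 lay in the group near the left end. Over the H3K9me3 input the medians were 0.38 and -0.28 on arms without the ribosomal end, -1.10 and -1.40 in centres and 1.21 and -1.11 on X. The order of the 3 regions by their difference from other windows was the same with this input, with X first.

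Arms and centres of the over-covered windows differed in H3K9me2 of set-25 by 2.26 (1.46 without the ribosomal end), as against 1.23 in the other windows. The other 3 libraries differed less between arms and centres. The difference was -0.15 for H3K9me2 in met-2 (other windows -0.04), 0.94 for H3K9me3 of the library labelled set-25 (0.75 without the ribosomal end, other windows 0.54) and 0.07 for H3K9me3 in met-2 (other windows -0.12).

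H3K9me2 of met-2 had medians of -0.18 on arms, -0.03 in centres and -0.11 on X in over-covered windows, against -0.02, 0.02 and -0.04 in the others, and of its 9 enriched windows 1 lay on arms (background 1.4%), 8 in centres (background 1.53%) and 0 on X (background 0.743%). H3K9me3 of the library labelled set-25 was lower in over-covered windows in all 3 regions, with medians of -0.60 on arms, -1.54 in centres and -0.70 on X, against -0.01, -0.55 and -0.43 in the others. It was enriched in 10 windows on arms (6 without the ribosomal end, background 10.4%), 0 in centres (background 4.26%) and 1 on X (background 4.43%). H3K9me3 of met-2 had medians of -0.42 on arms, -0.49 in centres and -0.49 on X, against -0.40, -0.28 and -0.40 in the others, and of its 15 enriched windows 1 lay on arms (background 2.56%), 14 in centres (background 6.23%) and 0 on X (background 2.53%).

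**Figure D4:**
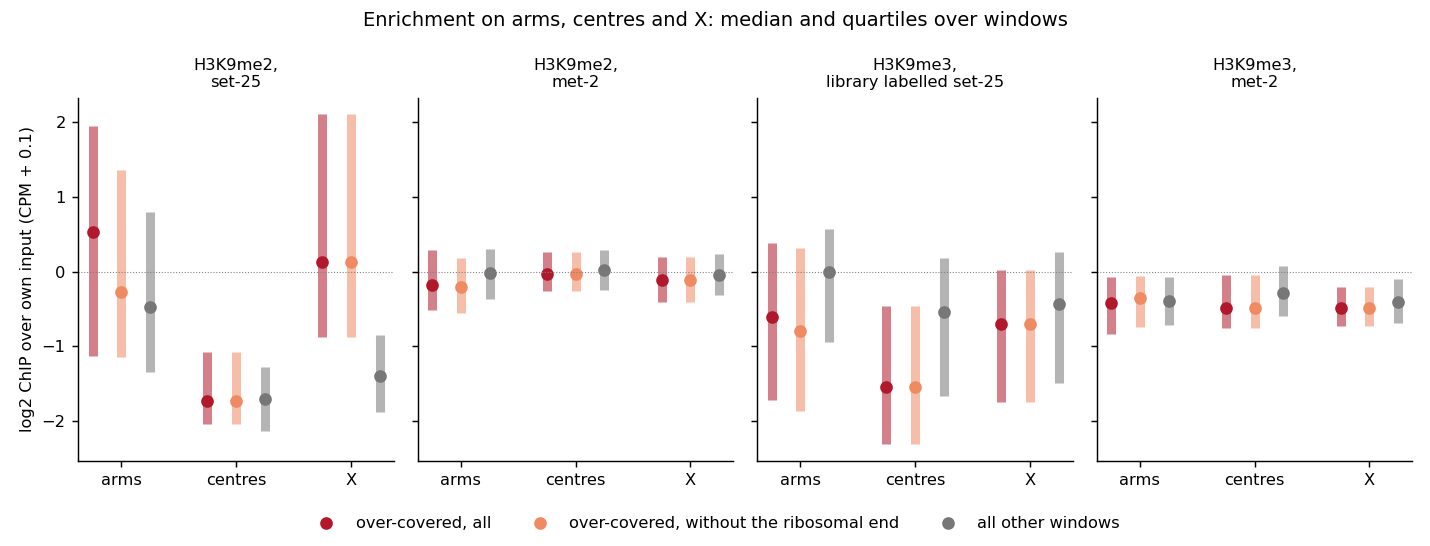
Median (points) and quartiles (bars) of log2 ChIP over own input on arms, in centres and on X in each library, for all over-covered windows, for those without the ribosomal end and for all other windows. For H3K9me2 of set-25 the arm median is 0.53 with the ribosomal end and -0.28 without it, and the X median is 0.13, against -1.397 in the other windows of X.

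Between the strains, the median difference of set-25 minus met-2 in the 290 windows was -0.83 for H3K9me2, against -1.27 in the others, and -0.73 for H3K9me3 with the library labelled set-25, against -0.08 in the others. H3K9me2 was at least 1 log2 unit higher in set-25 than in met-2 in 71 of the 290 windows (24.5%, background 9.81%) and at least 1 lower in 127 (43.8%, background 60.2%). The higher windows numbered 50 on arms (39 without the ribosomal end, background 21.3%), 8 in centres (background 1.34%) and 13 on X (background 2.77%), and the lower ones 22 on arms (background 31.9%), 101 in centres (background 84.8%) and 4 on X (background 67.9%). In the median of all 191140 windows H3K9me2 stood at -1.33 in set-25 and at -0.01 in met-2. Relative to that shift, with each library centred on its median, 119 of the 290 windows (41.0%, all windows 23.5%) were at least 1 higher in set-25 and 14 (4.83%, all windows 10.05%) at least 1 lower, so that the split between higher and lower windows turned round with the scaling. For H3K9me3, the library labelled set-25 was at least 1 higher than met-2 in 40 windows (13.8%, background 19.6%), 29 of them outside the ribosomal end, and at least 1 lower in 121 (41.7%, background 29.7%). The higher ones were 31 on arms (background 28.2%), 4 in centres (background 12.3%) and 5 on X (background 16.6%), and the lower ones 43 on arms (background 21.9%), 69 in centres (background 37.4%) and 9 on X (background 29.7%). The over-covered windows thus held a larger share with more H3K9me2 in set-25, and a larger share with less H3K9me3 in the library labelled set-25, than all windows did, with or without centring.

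The 290 windows formed 173 runs of adjacent windows, 122 of them single windows and 15 of at least 4 windows, and the longest was the ribosomal run of 5 kb. In long or strongly over-covered runs, H3K9me2 in set-25 was above its own input in some places and not in others. The highest value among the named runs was on X from 7077501 to 7078500, a stretch of 1 kb at 8.66 times the median in the H3K9me2 input of set-25 and 8.23 times in that of met-2. Its ChIP counts were 57896 for H3K9me2 in set-25, 3486 for H3K9me2 in met-2, 609 for H3K9me3 of the library labelled set-25 and 2735 for H3K9me3 in met-2. The input counts, in that order, were 4172, 3044, 6127 and 11565. The log2 enrichments were 4.98 (95% counting interval 4.94 to 5.03) and 0.55 (0.48 to 0.62) for H3K9me2 in set-25 and met-2, a 21.5-fold difference, and -2.01 and -1.12 for H3K9me3 of the library labelled set-25 and met-2. The run stood 5.01 above the median of its flanks for H3K9me2 in set-25, and it kept 4.56 over the H3K9me3 input.

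Another X run, near the left end of the chromosome from 10001 to 13000, was only 1.74 and 1.71 times the median in the set-25 and met-2 H3K9me2 inputs. It held 6309 ChIP and 2520 input counts for H3K9me2 in set-25, and 1280 ChIP and 1897 input counts in met-2. The log2 enrichment was 2.51 (2.44 to 2.58) in set-25 and -0.21 (-0.31 to -0.11) in met-2, and H3K9me3 was at -0.05 for the library labelled set-25 and at -0.14 for met-2. It belongs to a group of 10 over-covered windows from 6501 to 21500 that held 5 of the 11 enriched windows of X.

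In the centre of V, the run from 5284001 to 5286000 (4 windows, mean degree 4.18) had 13678 ChIP and 4600 input counts for H3K9me2 in set-25, and 4305 ChIP and 3095 input counts in met-2. Its log2 enrichment was 2.76 (2.71 to 2.81) in set-25, with its windows between 2.54 and 2.82, and 0.83 (0.77 to 0.90) in met-2, the highest of H3K9me2 in met-2 among runs of at least 4 windows. Over the H3K9me3 inputs these became 2.03 and -0.17, so that the met-2 value did not stay above 0. On the right arm of V, the run from 19632001 to 19634500 had 2.44 in set-25 and -0.23 in met-2.

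The most over-covered run of at least 2 windows outside the ribosomal end lay on the right arm of IV from 13549001 to 13550000, with a mean degree of 17.1. H3K9me2 held 12877 ChIP and 8384 input counts in set-25, and 4064 ChIP and 6335 input counts in met-2, or log2 enrichments of 1.80 (1.77 to 1.84) and -0.28 (-0.34 to -0.23). The next, a left-arm run of III from 931001 to 932000 with a mean degree of 13.8, had nearly equal H3K9me2 enrichments of 0.74 and 0.64. On the left arm of I, the run from 933001 to 934000 (mean degree 5.72) had 1.25 and 0.53 in set-25 and met-2, and on II the run from 13984501 to 13987000 had 0.98 and -0.48. In all 4 of these runs H3K9me3 was below 0 in both libraries, from -2.11 to -1.18 in the library labelled set-25 and from -1.09 to -0.12 in met-2.

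Strong over-coverage without H3K9me2 above its own input was seen as well. On the right arm of III, the run from 13778001 to 13781500 (7 windows, 5.87 to 6.18 times the median in all 4 inputs) had log2 enrichments of -0.13 and -0.03 for H3K9me2 in set-25 and met-2, and of -0.11 and -0.12 for H3K9me3 of the library labelled set-25 and met-2. The 4 ChIPs thus followed their inputs over the run as a whole, although its windows ranged from -1.36 to 1.31 for H3K9me2 in set-25. For this mark and strain the run stood 0.77 above the median of its flanks, and the other windows on arms had a median of -0.47. On the left arm of V, the run from 265001 to 267500 (mean degree 8.12, up to 20.9) had -0.72 and -0.58 for H3K9me2, against its inputs at 8.12 and 10.1 times the median. It had only 2.77 and 2.90 times the median in the H3K9me3 inputs, over which H3K9me2 was at 1.06 and 1.57 in set-25 and met-2. Relative to its flanks, H3K9me2 in set-25 over its own input was at -1.94.

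The densest group of over-covered windows, 26 from 18703501 to 18724500 on the right arm of V, had a median of -1.33 for H3K9me2 in set-25, and 2 of its windows were enriched. Its runs from 18720501 to 18724500 and from 18715501 to 18718500 had -1.69 and -1.95 in set-25 and -0.78 and -0.77 in met-2, the lowest of H3K9me2 in met-2 among runs of at least 4 windows together with the run at 265001. For H3K9me3 of the library labelled set-25 the first of these runs had 0.52 (0.42 to 0.61) and the run from 18703501 to 18705500 had 0.42 (0.30 to 0.54), which with the ribosomal run were the 3 highest among runs of at least 4 windows. In the centre of V, the run from 15431001 to 15435500 (9 windows) had -1.12 and -0.14 for H3K9me2 in set-25 and met-2. The runs from 8119501 to 8122000 and from 13363001 to 13365500, also in the centre of V, had -2.10 and -2.08 in set-25, with -0.18 and -0.09 in met-2. Their values in set-25 were the lowest of H3K9me2 among runs of at least 4 windows.

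H3K9me3 of met-2 was high in 2 runs in the centre of III. From 4434501 to 4436500 it held 13923 ChIP and 5707 input counts, a log2 enrichment of 2.25 (2.20 to 2.29), and from 5507001 to 5509500 it held 10074 ChIP and 7201 input counts, or 1.45 (1.402 to 1.490). In the library labelled set-25 the same runs had -0.12 and -0.32. H3K9me2 in these runs was -1.55 and -1.45 in set-25 and 0.47 and 0.53 in met-2. These were the only named runs with H3K9me3 of met-2 above 0, and their 9 windows were 9 of the 15 enriched. The first stood 0.53 above its flanks and the second 1.57, so that the first lay in a wider stretch with H3K9me3.

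**Figure D5:**
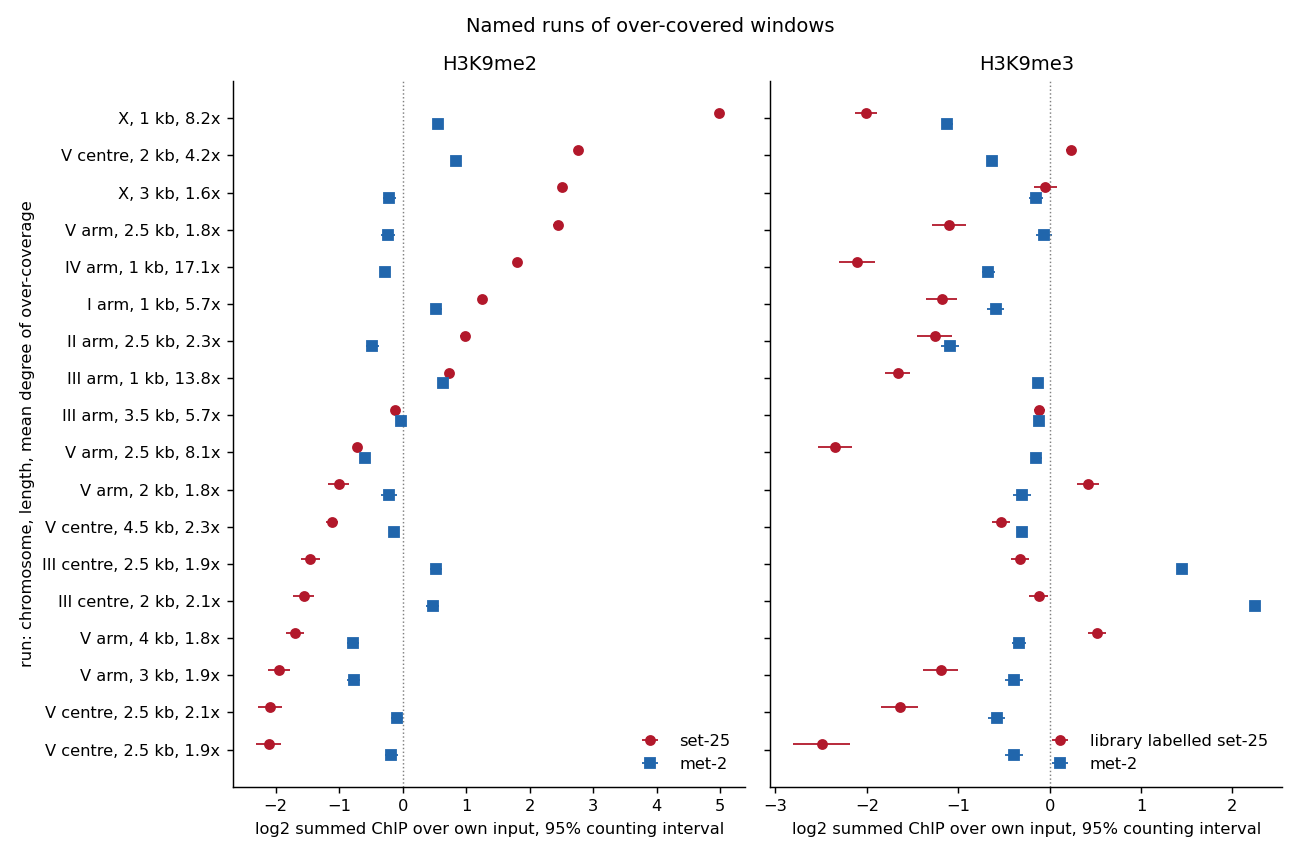
Log2 of summed ChIP over own input, with 95% counting intervals, in the 18 named runs outside the ribosomal end, for H3K9me2 (left) and H3K9me3 (right) in the set-25 and met-2 libraries. Runs are ordered by H3K9me2 in set-25, from 4.98 on X at the top to -2.10 on V at the bottom; in met-2 H3K9me2 lies between -0.78 and 0.83, and H3K9me3 of met-2 is above 0 in the 2 runs in the centre of III.

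Some shorter stretches had still higher H3K9me2 in set-25, and these and the other single windows given here were chosen after their values were seen. In the centre of IV, 2 adjacent windows from 11070501 to 11071500 held 36272 ChIP and 1298 input counts in set-25, and 1374 ChIP and 854 input counts in met-2, or log2 enrichments of 5.99 (5.91 to 6.07) and 1.04 (0.92 to 1.17). In the centre of V, the window from 12510001 to 12510500 had 5.81 and 1.17, and on X the window from 12277501 to 12278000 had 5.06 and 0.92. With a lower enrichment but the highest degree of any single-window run, the window from 3171501 to 3172000 on the left arm of I was at 15.3 and 13.3 times the median in the H3K9me2 inputs and at 28.5 and 31.4 times in the H3K9me3 inputs, and had 3.56 in set-25 and 0.45 in met-2. Each of these places also held less H3K9me3 than its input in met-2, at -1.20, -1.47, -2.05 and -1.13. The highest H3K9me3 of met-2 in a single window was 3.27, in the centre of IV from 12319001 to 12319500.

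Set against their surroundings, the median of the windows 2 to 11 positions away on either side, over-covered windows differed in both directions. For H3K9me2 of set-25, 71 of 289 windows (24.6%, background 11.8%) were at least 1 above their flanks and 45 (background 11.1%) at least 1 below. On X 15 of 34 (44.1%, background on X 7.85%) were at least 1 above, where 10 of the 34 lay in 1 group near the left end. For H3K9me2 of met-2 the numbers were 8 (background 0.851%) and 9 (background 1.63%). For H3K9me3 they were 24 (background 16.2%) and 132 (background 24.1%) in the library labelled set-25, and 9 (background 2.78%) and 25 (background 2.07%) in met-2. The lower H3K9me3 of the library labelled set-25 was therefore seen against neighbouring windows too, with a median of -0.86. Within 100 kb of a chromosome end lay 30 of 290 over-covered windows (10.3%), or 19 of 279 (6.81%) without the ribosomal end, against 1.05% of the 191140. They came from few places. Beside the 11 ribosomal windows, 10 were a group on X from 6501 to 21500. Another 8 were a group on III from 13778001 to 13783500, and 1 lay on II. Neighbouring windows are not independent cases, so these shares do not describe chromosome ends in general.

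The windows that were over-covered in all 4 inputs differed from the others in H3K9me2. Without the ribosomal end, the 134 windows also at 1.5 or more in both H3K9me3 inputs had median log2 enrichments for H3K9me2 of -0.47 (set-25) and 0.23 (met-2), and 43 of them (32.1%, background 10.3%) were enriched in set-25. The 109 windows between had -1.29 and -0.20, with 12 (11.01%) enriched in set-25, and the 36 below the median in both H3K9me3 inputs had -1.84 and -0.60, with 6 (16.7%) enriched. Over all 191140 windows, too, H3K9me2 enrichment correlated with the smaller H3K9me3 input ratio, at 0.27 (set-25) and 0.63 (met-2), while over the 290 it did so at 0.45 and 0.69. Among the 134, the 63 on arms had a median of 0.57 in set-25, the 59 in centres -1.33 and the 12 on X 1.16. H3K9me3 had medians of -0.48, -1.52 and -1.86 in these 3 groups in the library labelled set-25, and of -0.46, -0.45 and -0.40 in met-2. H3K9me2 in both strains and H3K9me3 in the library labelled set-25 thus moved with the H3K9me3 inputs over these windows, and the part of the inputs in it was not tested.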

How the data were processed

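The values analysed are deposited raw read counts in windows of 500 bp, in 8 columns, 1 per group, each assigned by its name, and 0 columns belonged to no sample. The unit was read from the values, whole numbers with different totals. Per the series' design text, libraries were made without size selection and sequenced in pairs. The aligner, the genome build, and the treatment of duplicates and of reads that map to several places are not given in the sources used, and the last 2 bear directly on windows of repeated sequence. It is not stated whether a column holds 1 replicate or both. The last, incomplete line was left out, and X beyond 16493500 is not analysed here.

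The over-covered windows, the regions named and the groups by degree were chosen with earlier results of these data known. Each column was divided by its total (CPM), and enrichment is the log2 of ChIP over input, after adding 0.1 CPM to each. For runs, counts were summed, and 95% intervals were exact (Clopper-Pearson) ones for the share of ChIP among ChIP and input counts, turned into ratios. Amplified reads are not independent molecules, so intervals cover counting error only. The 6947 windows with under 20 counts in any input were left out. The planned limma fits needed replicates and were not run.

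Regions named were the ribosomal end, the 5 longest and the 5 most over-covered runs of at least 2 windows outside it, and, among runs of at least 4 windows, the 3 highest and 3 lowest of each library. No gene was assigned to a window, since the gene table is of another build. Alternatives covered the threshold, inputs, scaling, pseudocount, window size, arms and count minimum. Scripts (Python 3.11.15, pandas 2.3.3, numpy 2.4.6, scipy 1.17.1, matplotlib 3.10.9) were tested on simulated data.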

Additional observations from a re-analysis of the deposited data

Results flagged for a closer look

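In over-covered windows as a whole, on arms and on X, H3K9me2 differed from other windows in opposite directions in the 2 strains, and the difference between the strains was not tested. Over all 290 windows the median log2 enrichment differed from that of the other windows by 0.393 in set-25 and -0.0809 in met-2. The met-2 value depended on the choice of windows, at 0.044 with a threshold of 2 times the median and 0.25 with all 4 inputs over-covered. It is also smaller than the half-width, 0.083, of an interval of the median over windows. That interval treats neighbouring windows as independent, which they are not, and is no replicate error. For arms this was 0.998 (set-25) and -0.162 (met-2), and without the ribosomal end 0.19 and -0.19. For X it was 1.52 (set-25) and -0.0666 (met-2). In centres both were below 0, at -0.030 (set-25) and -0.048 (met-2). Over the H3K9me3 input the values for met-2 were 0.25, 0.36 on arms and 0.29 on X, and those for set-25 0.62, 1.18 and 2.32, so that with this input both strains were above the other windows.

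In the ribosomal run H3K9me3 was above its input in the library labelled set-25, at 0.429, and below it in met-2, at -1.43, and this difference was not tested either. Over the H3K9me2 input both values were above 0, at 2.24 and 1.41.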

How the results depend on the processing

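Across 15 results and 16 alternatives, 118 of 186 values stayed within 1.5 times (counts) or within the 95% interval of the median over windows. That interval takes windows as independent and was used only to sort the values by size of change. Of the others, 62 moved further and 6 turned round in sign from a main value beyond its interval. Another 9 changed sign from a main value within its interval, 5 of them the difference of H3K9me2 in met-2 from other windows (-0.081 as reported), 3 the arms minus centres of H3K9me3 in met-2 and 1 that of H3K9me2 in met-2. The 6 were the H3K9me2 difference between strains (-0.83 as reported) with a threshold of 2 times the median, with no input and with centring, the differences of H3K9me3 in the library labelled set-25 from other windows (-0.71) and from met-2 (-0.73) when the H3K9me3 inputs chose the windows, and the difference of H3K9me3 in met-2 from other windows with no input. Raising the threshold to 2 times the median left 100 windows, with 38, 4, 5 and 2 enriched (H3K9me2 in set-25 and met-2, then H3K9me3 in the library labelled set-25 and met-2), differences from other windows of 1.496 and 0.044 for H3K9me2 in set-25 and met-2, and a difference between strains of 0.034 for H3K9me2. Asking for 1.5 times the median in all 4 inputs left 145 windows, with differences from other windows of 1.06, 0.25 and, for H3K9me3 of the library labelled set-25, -0.029, and between strains of -0.26 for H3K9me2 and -0.081 for H3K9me3. Using the H3K9me3 inputs instead gave 37521 windows, with 6191, 1919, 2097 and 3553 enriched, differences from other windows of 0.47 for H3K9me2 in met-2, and of 0.74 and -0.29 for H3K9me3 of the library labelled set-25 and met-2, arms minus centres of 0.20 and -0.30 for H3K9me3, and between strains of -1.18 for H3K9me2 and 0.72 for H3K9me3. Without the ribosomal end, arms minus centres for H3K9me2 in set-25 became 1.46, and 7 windows were enriched for H3K9me3 of the library labelled set-25. With runs of at least 2 windows (168 windows), 42, 3, 7 and 9 were enriched, arms minus centres were 1.31 for H3K9me2 in set-25 and 0.34 for H3K9me3 of the library labelled set-25, and H3K9me3 in met-2 differed from other windows by -0.0089. With 1 kb windows, 113 were over-covered, 33, 3, 3 and 4 enriched, H3K9me2 in set-25 differed from other windows by 0.71 and from met-2 by -0.49. With the input of the other mark, 60 windows were enriched for H3K9me2 in met-2 and 28 for H3K9me3 of the library labelled set-25, and the differences from other windows were 0.25 for H3K9me2 in met-2 and -1.14 and -0.49 for H3K9me3. With no input, 175, 135, 94 and 105 windows were above the threshold, differences from other windows were 1.43, 0.92, -0.10 and 0.51, arms minus centres were 0.12 for H3K9me2 and 0.52 for H3K9me3 in met-2, and the strains differed by 0.38 for H3K9me2. Centring on the median gave 112 enriched windows for H3K9me2 in set-25, 18 for H3K9me3 of the library labelled set-25 and a difference between strains of 0.49 for H3K9me2, since centring shifts set-25 upward by its low median. An enrichment threshold of 0.5 gave 48 and 29 windows for H3K9me2 in met-2 and H3K9me3 in the library labelled set-25, and one of 2 gave 0, 0 and, for H3K9me3 in met-2, 6. With arms as the third of the chromosome at either end, arms minus centres for H3K9me2 in set-25 was 1.18. A count minimum of 1, a pseudocount of 1 CPM, totals without the top 1% of windows and a count minimum without the H3K9me3 input labelled set-25, chosen after seeing the data, moved none of these values. Other than where the number of windows itself sets a count, the cause was not tested. No paired analysis was possible because the table has 1 column per group and the columns carry no replicate number, and for the same reason no replicate could be left out. Depth limits the single windows of the H3K9me2 ChIP of set-25 and of the H3K9me3 ChIP labelled set-25, whose median windows held 41 and 72 counts.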

Other observations

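By chromosome, the median H3K9me2 enrichment of over-covered windows in set-25 was highest on X, at 0.13, and second on IV, at -0.68, with 10 of its 41 windows enriched (24.4%, other windows of IV 8.05%) and 5 of the 9 enriched windows of H3K9me2 in met-2 (12.2%, other windows of IV 1.16%). Those 5 came from few places: 2 from 9047001 to 9048500, 2 from 11070501 to 11071500 and 1 from 12319001 to 12319500. Chromosome I had -1.56 without its ribosomal end, with 7 of 34 windows enriched (20.6%, other windows of I 13.1%). Chromosome III had the highest median of H3K9me3 in met-2, -0.17, and 9 of the 15 enriched windows (20.9%, other windows of III 3.71%). All 9 belonged to the 2 runs in its centre, from 4434501 to 4436500 and from 5507001 to 5509500. On the left arm of IV, a group of 6 over-covered windows from 2822001 to 2828500 had medians of -0.49 and 0.20 for H3K9me2 in set-25 and met-2, and of 0.46 and -0.30 for H3K9me3 of the library labelled set-25 and met-2.

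Of the windows just outside the threshold, with a degree of 1.4 to 1.5, 370 of 477 lay in centres and 69 on arms. Their median log2 enrichments were -1.71 and -0.10 for H3K9me2 in set-25 and met-2, and -1.16 and -0.41 for H3K9me3 of the library labelled set-25 and met-2. The 95 windows just inside had -1.51, -0.06, -1.37 and -0.47 in the same order. Beyond the medians the 2 groups differed. H3K9me2 was at least 1 log2 unit higher in set-25 than in met-2 in 12 of the 477 windows (2.52%) and in 19 of the 95 (20%), against a background of 9.81%. The 2 groups were not matched by region.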
